A study of Mus musculus with 10 samples.

Results

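The 10 genes described here are the Notch receptors Notch1, Notch2, Notch3 and Notch4, the ligands Dll1, Dll4 and Jag1, and the Notch target genes Hey1, Hes1 and Nrarp, chosen by symbol from a table of raw counts for 23337 genes. All 10 were found and all 10 passed the filter on low counts. Messenger RNA was measured in mouse embryoid bodies, which are clumps of embryonic stem cells left to differentiate, of the iHA-Etv2 line, in which doxycycline turns on an HA-tagged Etv2. Etv2 is an ETS transcription factor required for blood and endothelial development. There were 5 groups of 2 libraries: untreated embryoid bodies of day 2 and of day 2.5, doxycycline-treated embryoid bodies of the same days, and doxycycline-treated Flk1-positive samples of day 2.5. All 10 libraries come from the same line, so the untreated ones carry the inducible gene too. The Flk1 label is FALSE for 8 libraries, with no statement of whether those cells were left unsorted or sorted as negative. The labels name no separate cultures for the replicates, so the p-values cover the spread of these libraries alone, and that spread may be technical.

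Notch receptors are single-pass membrane proteins that are activated by ligands on a neighbouring cell. Ligand binding exposes the receptor to an ADAM protease and then to gamma-secretase, and the freed intracellular domain enters the nucleus, where it joins RBPJ and Mastermind proteins on target genes. In the embryo the pathway is known for arterial identity of endothelium, for the first blood stem cells and for the segmentation of the presomitic mesoderm. None of these protein steps was measured: the values below are transcript levels only. In samples of mixed cells, more cells of a type and more RNA per cell cannot be told apart.

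Library totals ran from 18074070 to 36068329 counts, and 14548 genes were tested with edgeR. Levels are CPM, the counts scaled to a common library size. Etv2 was at 15.8 to 18.1 CPM without doxycycline and 402.9 to 507 CPM with it at day 2, and at 6.57 to 7.50 and 255 to 272 CPM at day 2.5, with 303 to 323 CPM in Flk1-positive samples; counts of the added and the native gene are not separated. Kdr, which encodes Flk1, was at 986 to 1008 CPM in Flk1-positive samples and 405 to 433 CPM in the other doxycycline samples of day 2.5. The summed level of 10 endothelial markers, Kdr among them, moved the same way, so Kdr is counted again in it. At day 2.5 it went from 34.8 to 34.9 CPM without doxycycline to 685 to 716 CPM with it and 1641 to 1735 CPM in Flk1-positive samples. Of its 9 tested markers, 7 were called higher in Flk1-positive than in other doxycycline samples and 1, Pecam1, lower. Over all genes 20.5% were called higher and 21.3% lower there. The sum of 8 haematopoietic markers was 10.3 to 13.1, 387 to 410 and 1210 to 1304 CPM in the same order of groups, with Hbb-bh1 at 0 in both doxycycline groups. That of 4 leukocyte markers was 11.1 to 11.4, 40.1 to 41.3 and 76.8 to 88.6 CPM, with Ptprc at 0 in both doxycycline groups and Coro1a and Laptm5, the 2 tested, called higher with doxycycline. The part of these markers in the results below was not tested. The 2 doxycycline libraries of day 2 stood apart from each other: their chi-square per gene was 32.0, whereas the other pairs had 3.33 to 9.65. The difference between these 2 libraries followed exon length (rank correlation across 13193 genes, which are not independent replicates, 0.46) and GC content (-0.35). The Flk1-positive pair also differed along GC content (-0.38). For the 10 genes, values past the threshold that use the day 2 doxycycline pair are given with and without each of its libraries. Values of other genes are given from the fit of all 10 libraries alone.

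Exon overlaps limit what some of these counts hold. In the GENCODE M21 annotation of mouse GRCm38, Nrarp (chromosome 2, 25180758 to 25183339, plus strand) shares 79.4% of its exon bases with Gm38287, an antisense gene. Dll1 (chromosome 17, 15367354 to 15376872, minus strand) shares 20.6% with the opposite-strand lincRNA A930024N18Rik. The overlap was 9.76% for Notch1, 6.03% for Notch3, 5.56% for Dll4 and 5.02% for Notch2, and 0 for Notch4, Jag1, Hey1 and Hes1. The strand setting of the counting is not given in the sources used here, so reads of Nrarp and Dll1 cannot be told apart from those of their antisense partners, which were not analysed here. The partner of Dll4, Gm14207, had 10 counts in doxycycline day 2.5 replicate 2, where Dll4 had 30, and 0 to 5 counts in each of the other libraries.

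Upstream sequence is shown for 4 genes that were higher with doxycycline at day 2.5 and, as the contrast, for Notch3, which was lower. RefSeq start sites of GRCm38.p6 matched 8 of the 10 genes. The RefSeq start of Notch1 lies inside the span given for that gene below, at the 5′ end of another annotated protein-coding transcript, and 1 of the 2 Dll1 starts lies inside Dll1. Each window holds the 250 bases before the start, 5′ to 3′ along the gene, with GGAA, the core of ETS binding sites, in capitals on either strand (TTCC where it lies on the other strand).
Nrarp (chr2:25180508-25180757, plus strand): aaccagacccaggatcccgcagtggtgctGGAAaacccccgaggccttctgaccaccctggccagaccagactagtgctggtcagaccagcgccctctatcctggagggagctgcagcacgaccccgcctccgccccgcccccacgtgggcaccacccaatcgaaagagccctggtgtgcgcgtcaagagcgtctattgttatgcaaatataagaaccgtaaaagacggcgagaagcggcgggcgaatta
Notch1 (chr2:26503823-26504072, minus strand): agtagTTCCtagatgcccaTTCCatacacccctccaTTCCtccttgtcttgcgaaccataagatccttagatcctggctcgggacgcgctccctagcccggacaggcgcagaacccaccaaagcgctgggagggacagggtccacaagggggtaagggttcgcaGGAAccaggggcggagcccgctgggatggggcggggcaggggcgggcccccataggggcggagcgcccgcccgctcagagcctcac
Notch4 (chr17:34564045-34564294, plus strand): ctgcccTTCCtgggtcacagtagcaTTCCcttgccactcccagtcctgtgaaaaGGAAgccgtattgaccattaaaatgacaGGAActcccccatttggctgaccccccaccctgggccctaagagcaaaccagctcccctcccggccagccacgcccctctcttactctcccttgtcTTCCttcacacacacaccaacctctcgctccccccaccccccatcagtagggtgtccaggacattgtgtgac
Dll4 (chr2:119325534-119325783, plus strand): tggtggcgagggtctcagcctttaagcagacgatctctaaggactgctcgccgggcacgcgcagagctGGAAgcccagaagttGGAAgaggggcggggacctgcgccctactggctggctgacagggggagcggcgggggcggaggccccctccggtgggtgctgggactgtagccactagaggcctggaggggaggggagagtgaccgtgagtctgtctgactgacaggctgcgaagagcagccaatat
Notch3 (chr17:32166891-32167140, minus strand): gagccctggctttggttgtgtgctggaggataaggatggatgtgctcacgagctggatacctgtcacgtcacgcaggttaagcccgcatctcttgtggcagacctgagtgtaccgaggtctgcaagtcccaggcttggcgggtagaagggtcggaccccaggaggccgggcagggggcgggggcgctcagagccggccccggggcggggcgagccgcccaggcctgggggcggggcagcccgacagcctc
The GGAA core was present 5 times in the Notch4 window, 4 times in that of Notch1, 3 times in those of Notch2 and Jag1, 2 times in that of Dll4, and 1 time in that of Nrarp and in each of the 2 Dll1 windows. Notch3 had none. Since 93.4% of 32851 promoter windows of this length hold at least 1 GGAA, presence alone does not set these genes apart. The longer ETS motif CCGGAA (12.0% of windows) and the RBPJ core TGGGAA (21.6%) were in none of the 9 windows searched on both strands; each RBPJ core ends in a GGAA, so the searches overlap. A CACGTG, the E-box form bound by Hey and Hes proteins among others, lay 108 bases before the Nrarp start (6.02% of windows hold one). The N-box CACNAG, another Hes site (36.7% of windows), occurred 2 times each in the Nrarp and Notch3 windows and 1 time each in those of Notch1, Notch2 and Dll4. Absence from these windows says only that the letters are not there.

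**Figure D1:**
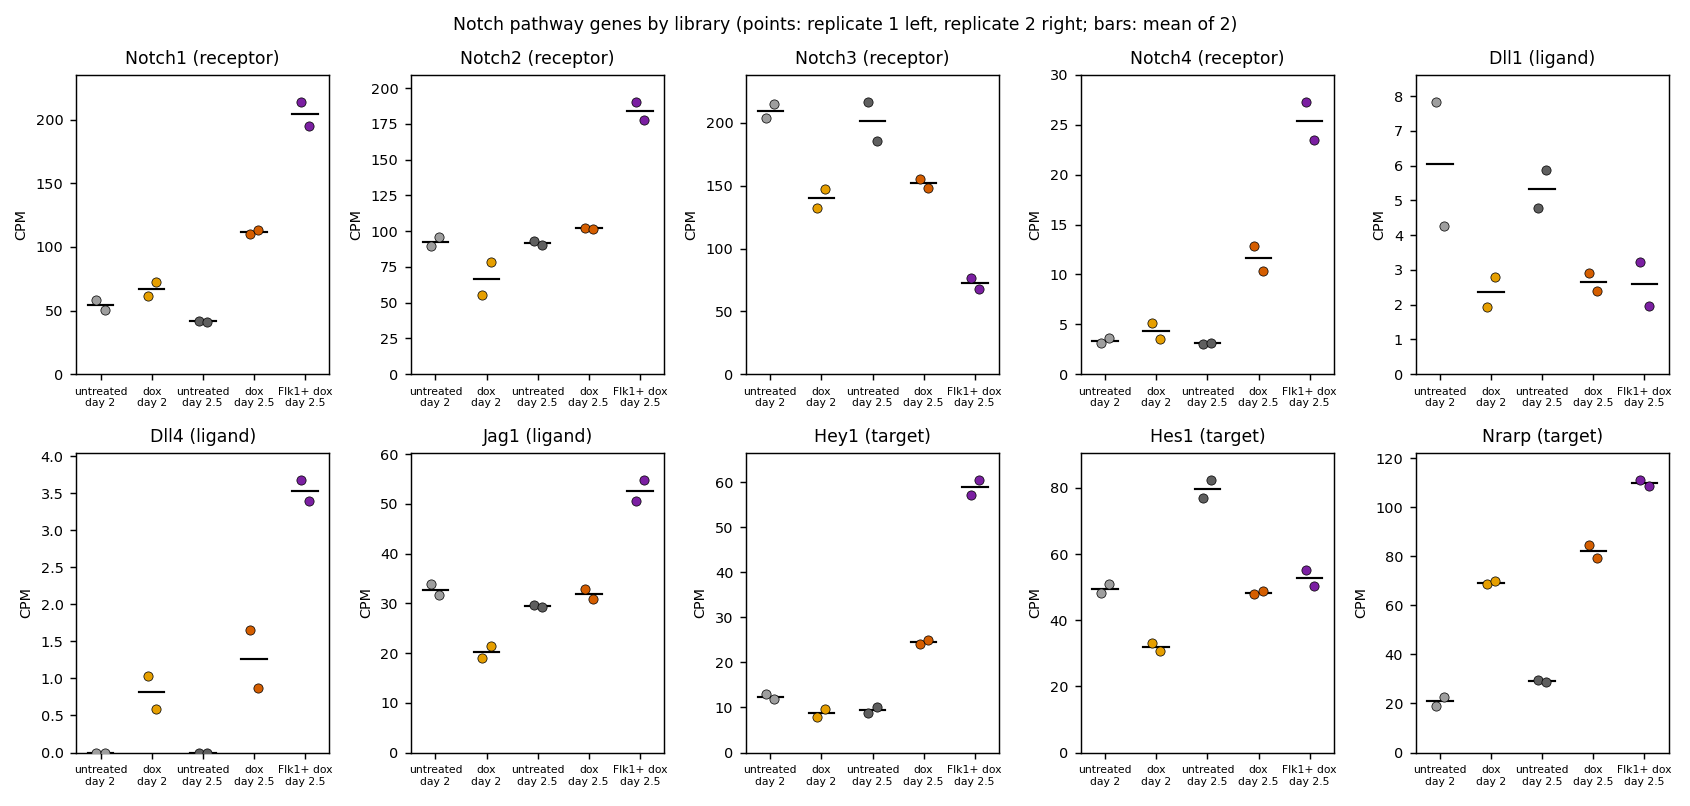
Level of each of the 10 genes in CPM (vertical axes start at 0) in the 5 groups along the horizontal axis, with 1 point per library and a bar at the mean of 2. Nrarp, Notch1 and Dll4 are higher in all doxycycline libraries than in all untreated ones, though Notch1 was not called at day 2. Notch3 and Dll1 are lower in all doxycycline libraries. Notch4 and Hey1 are higher with doxycycline at day 2.5. At day 2 Notch4 overlaps, and Hey1 is lower in both doxycycline libraries, a difference that was not called. Notch3 is lowest in Flk1-positive samples.

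Notch1 (chromosome 2, 26457903 to 26516663, minus strand), the receptor needed for arterial and blood stem cell formation, rose with doxycycline at day 2.5 and was highest in Flk1-positive samples. Its level was 57.9 and 50.3 CPM in untreated day 2 libraries, 61.3 and 72.6 CPM with doxycycline at day 2, 42.0 and 41.4 CPM in untreated day 2.5 libraries, 110 and 114 CPM with doxycycline at day 2.5, and 214 and 195 CPM in Flk1-positive samples. No 2 neighbouring groups in the order of levels overlapped. The difference at day 2.5 was 1.43 ± 0.11 on the log2 scale (2.69-fold; edgeR adjusted p = 6.47e-08), and Flk1-positive samples were higher than the other doxycycline samples by another 0.87 ± 0.10 (edgeR adjusted p = 1.04e-05). At day 2 the difference of 0.31 ± 0.11 did not pass the test (edgeR adjusted p = 0.132). It was 0.42 (edgeR adjusted p = 0.00375) without doxycycline day 2 replicate 1, 0.18 (0.258) without replicate 2, and 0.43 (0.00214) with length and GC trends removed. Untreated samples fell by 0.38 ± 0.11 from day 2 to day 2.5 (edgeR adjusted p = 0.0231). That call was lost without untreated day 2 replicate 1 (-0.27, adjusted p = 0.250), without untreated day 2.5 replicate 1 (0.0842) or replicate 2 (0.145), and without doxycycline day 2.5 replicate 1 (0.0560).

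Notch4 (chromosome 17, 34564268 to 34588503, plus strand), a receptor known for its expression in endothelium, had the widest range of the receptors. It was near 3 CPM in all 4 untreated libraries, with 3.12, 3.60, 3.05 and 3.15 CPM. Doxycycline libraries held 5.15 and 3.57 CPM at day 2, which overlapped the untreated ones, and 12.9 and 10.3 CPM at day 2.5, which did not. Flk1-positive samples had 27.3 and 23.5 CPM, a mean 8.19 times that of untreated day 2.5 samples. Notch4 rose with doxycycline at day 2.5 by 1.90 ± 0.21 on the log2 scale (edgeR adjusted p = 6.36e-06) and was higher again in Flk1-positive samples by 1.13 ± 0.19 (edgeR adjusted p = 0.000229). Its day 2 difference was 0.38 ± 0.23 (edgeR adjusted p = 0.462), and it was 0.09 (0.887) without doxycycline day 2 replicate 1 and 0.62 (0.104) without replicate 2.

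Notch2 (chromosome 3, 98013527 to 98150361, plus strand), a broadly expressed receptor, was higher in Flk1-positive samples than anywhere else. Those 2 libraries held 190 and 178 CPM, whereas doxycycline samples of day 2.5 held 102 and 102 CPM and untreated samples 89.4 and 96.1 CPM at day 2 and 93.4 and 90.3 CPM at day 2.5. The step from doxycycline to Flk1-positive samples was 0.85 ± 0.12 on the log2 scale (edgeR adjusted p = 6.66e-05), while the doxycycline difference at day 2.5 was 0.15 ± 0.12 (edgeR adjusted p = 0.393). At day 2 the doxycycline libraries had 55.3 and 78.3 CPM, below both untreated ones, and the difference of -0.47 ± 0.13 passed the test (edgeR adjusted p = 0.0429). That call rested on the full set: it was lost when any library other than doxycycline day 2 replicate 2 was left out (9 of 10, adjusted p between 0.0745 and 0.307). Without doxycycline day 2 replicate 1 the value was -0.24 (edgeR adjusted p = 0.0797), and without replicate 2 it was -0.74 (7.10e-07).

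Notch3 (chromosome 17, 32120820 to 32166852, minus strand), known in the vessel wall for its role in smooth muscle and pericytes, went the other way. The 4 untreated libraries held 204, 215, 217 and 186 CPM, the doxycycline libraries 133 and 147 CPM at day 2 and 156 and 148 CPM at day 2.5, and Flk1-positive samples 77.0 and 67.7 CPM. Every doxycycline library was below every untreated one. Notch3 was lower with doxycycline at day 2 (log2 change -0.58 ± 0.10, edgeR adjusted p = 0.00265) and at day 2.5 (-0.40 ± 0.10, edgeR adjusted p = 0.00651), and lower in Flk1-positive than in other doxycycline samples (-1.07 ± 0.10, edgeR adjusted p = 1.42e-06). The day 2 call of Notch3 did not hold once untreated day 2 replicate 2 was left out (adjusted p = 0.0592) or with the 4 day 2 libraries fitted alone (0.0740). The day 2.5 call was lost without untreated day 2.5 replicate 1 (-0.29, adjusted p = 0.104) or doxycycline day 2.5 replicate 2 (0.0785). Without doxycycline day 2 replicate 1 or 2 the day 2 value was -0.51 or -0.66 and stayed past the threshold. The summed level of 6 smooth muscle and pericyte markers also fell at day 2.5, from 111 to 117 CPM in untreated to 67.2 to 69.5 CPM in doxycycline and 36.7 to 37.3 CPM in Flk1-positive samples, with none of the 6 at 0, but it overlapped between the groups at day 2 (148 to 161 and 129 to 171 CPM). Of the 6, 3 were called lower with doxycycline at day 2.5 (Cnn1, Pdgfrb and Tagln), where 13.8% of all genes were. Only Cnn1 and Tagln were called lower in Flk1-positive than in other doxycycline samples, where 21.3% of all genes were. None of the 6 was called higher in either comparison. The part of these markers in the Notch3 result was not tested.

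Seen per kilobase of exon, which allows levels of different genes to be set side by side, the receptor makeup differed between the groups at day 2.5 more than the total did, whereas at day 2 the total was lower with doxycycline and the makeup differed less. Notch3 made up 66.9% ± 0.69 (SD, n = 2) of the summed receptor level in untreated samples at day 2 and 67.7% ± 1.98 at day 2.5, 60.3% ± 2.27 and 50.0% ± 0.71 with doxycycline at those days, and 20.5% ± 0.49 in Flk1-positive samples. Notch1 rose as a share from 8.0% ± 0.56 in untreated to 20.9% ± 0.86 in doxycycline and 33.0% ± 0.038 in Flk1-positive samples of day 2.5. Notch2 made up 23.3% ± 1.31, 25.2% ± 0.37 and 39.3% ± 0.74 of the receptor level in the same 3 groups, so it led in Flk1-positive samples. Notch4 stayed the smallest of the 4 in every group, with 1.05% ± 0.11 to 7.22% ± 0.29 at day 2.5. The summed level was 36.7 ± 2.94 CPM per kilobase in untreated, 37.6 ± 0.75 in doxycycline and 43.5 ± 2.93 in Flk1-positive samples of that day, and 38.7 ± 1.1 and 28.8 ± 3.22 without and with doxycycline at day 2. These shares are descriptions with no test of their own, and they assume the annotated exon lengths.

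**Figure D2:**
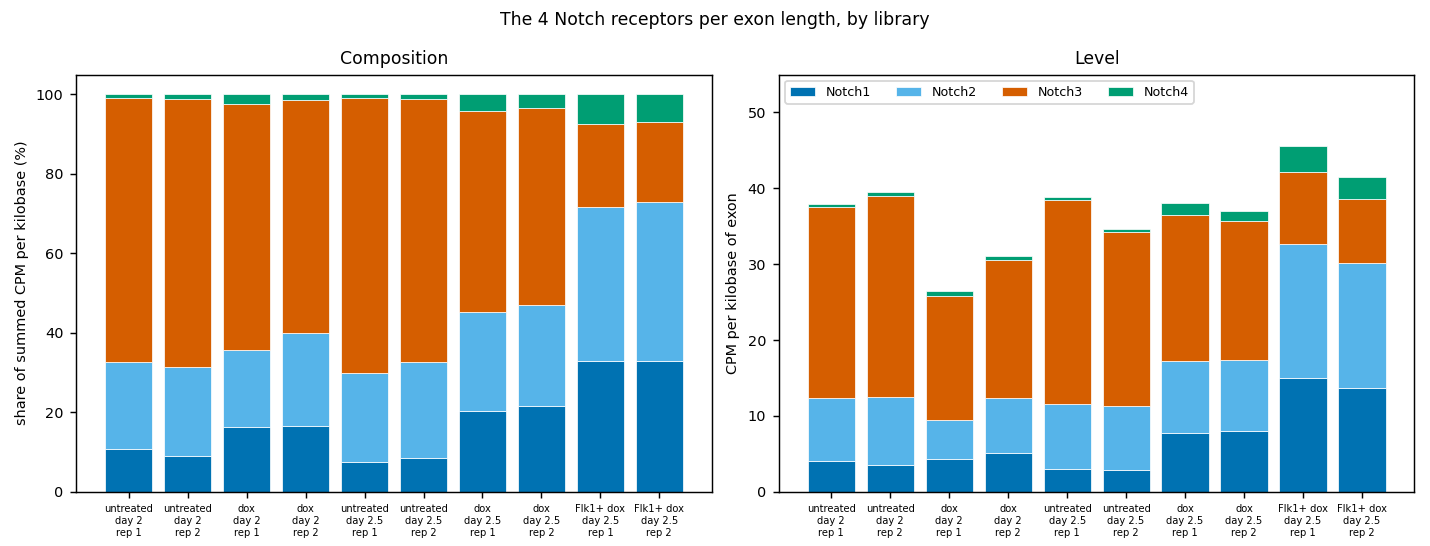
Notch1, Notch2, Notch3 and Notch4 in each of the 10 libraries, as a share (percent) of their summed CPM per kilobase of exon at left and as stacked CPM per kilobase at right. Notch3 falls from about 67% of the receptor level in untreated libraries (means 66.9% and 67.7%) to a mean of 20.5% in Flk1-positive ones.

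Among the ligands, Dll4 (chromosome 2, 119325784 to 119335962, plus strand), the endothelial ligand tied to arteries and sprouting, was counted only where doxycycline had been given. All 4 untreated libraries had 0 counts of Dll4, which allows up to 0.0724 CPM at day 2 and 0.0637 CPM at day 2.5 over a group (3 counts; counting error only). Doxycycline libraries held 22 and 12 counts (1.04 and 0.586 CPM) at day 2 and 60 and 30 counts (1.65 and 0.866 CPM) at day 2.5, and Flk1-positive samples held 89 and 64 counts (3.68 and 3.39 CPM). Dll4 passed the filter on low counts only through the doxycycline groups, where it was high, so it had to differ from the untreated groups, and it enters the counts of higher genes below on that footing. Against the floor of 3 counts per group, Dll4 was at least 11.3-fold higher with doxycycline at day 2 (edgeR adjusted p = 0.00683), at least 19.9-fold higher at day 2.5 (0.000247) and at least 55.8-fold higher in Flk1-positive than in untreated samples (8.01e-06). Flk1-positive samples exceeded the other doxycycline samples by 1.49 ± 0.49 on the log2 scale (edgeR adjusted p = 0.0268). The day 2 call of Dll4 was lost without untreated day 2 replicate 1 (adjusted p = 0.0873) or 2 (0.0559) and in a fit of the 4 day 2 libraries alone (0.103), and it held without doxycycline day 2 replicate 1 (0.00540) or 2 (0.000395). The Flk1-positive call was lost without doxycycline day 2.5 replicate 2 (1.1, adjusted p = 0.186) or without either Flk1-positive library (0.129 and 0.0900).

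Jag1 (chromosome 2, 137081456 to 137116644, minus strand), a ligand expressed in many tissues including endothelium, was the most abundant of the 3 ligands per kilobase, with 80.0% to 85.5% of their summed level as the group mean. It was at 33.9 and 31.6 CPM in untreated day 2 libraries, 19.0 and 21.5 CPM with doxycycline at day 2, 29.6 and 29.2 CPM in untreated and 32.8 and 30.9 CPM in doxycycline libraries of day 2.5, and 50.5 and 54.8 CPM in Flk1-positive samples. Jag1 was therefore lowest with doxycycline at day 2 and highest in Flk1-positive samples. It fell with doxycycline at day 2 (-0.70 ± 0.12, edgeR adjusted p = 0.00212), a call lost when untreated day 2 replicate 1 was left out (adjusted p = 0.0524) and in a fit of the 4 day 2 libraries alone (0.0956). The value was -0.61 and -0.79 without doxycycline day 2 replicates 1 and 2. At day 2.5 the doxycycline difference was 0.12 ± 0.11 (edgeR adjusted p = 0.481). Flk1-positive samples were higher than other doxycycline samples by 0.72 ± 0.11 (edgeR adjusted p = 0.000130). Jag2, a ligand outside the 3 compared here, had a higher mean CPM than Jag1 in every group but the Flk1-positive one. Jag2 means were 56.8 and 41.0 CPM without and with doxycycline at day 2, and 40.5 and 37.0 CPM at day 2.5. In Flk1-positive samples Jag2 was at 23.5 CPM. Its level per kilobase was not computed.

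Dll1, the ligand of the presomitic mesoderm and neural tissue, was low throughout and lower with doxycycline. Untreated libraries held 7.84 and 4.26 CPM at day 2 and 4.79 and 5.88 CPM at day 2.5; doxycycline libraries held 1.94 and 2.79 CPM at day 2 and 2.91 and 2.40 CPM at day 2.5; Flk1-positive samples held 3.22 and 1.96 CPM. All untreated libraries were above all others. The change with doxycycline was -1.37 ± 0.35 on the log2 scale at day 2 (edgeR adjusted p = 0.0322) and -1.01 ± 0.33 at day 2.5 (0.0302), and between Flk1-positive and other doxycycline samples it was -0.02 ± 0.35 (0.970). None of the 3 Dll1 calls, the third being Flk1-positive against untreated (-1.03 ± 0.34, edgeR adjusted p = 0.0185), held in every alternative. At day 2 the call was lost without untreated day 2 replicate 1 (-0.85, adjusted p = 0.505), without doxycycline day 2 replicate 1 (-1.13, 0.0529; without replicate 2 it was -1.65, 0.00488), without untreated day 2.5 replicate 1 (0.0561) or 2 (0.0584), and by limma-voom (0.0562) or the compared groups alone (0.215). At day 2.5 it was lost without any 1 of the 4 compared libraries (0.0664 to 0.177), and for Flk1-positive against untreated samples without untreated day 2.5 replicate 2 (0.117) or Flk1-positive replicate 2 (0.142). The summed level of 6 paraxial mesoderm markers was 56.4 to 62.4 CPM in untreated and 25.3 to 25.8 CPM in doxycycline samples of day 2.5 and 16.1 to 20.4 CPM in Flk1-positive samples, where Msgn1 and Meox1 were at 0. Tbx6, of the same list, was higher there than in the other doxycycline samples (5.23 against 2.45 CPM, edgeR adjusted p = 0.0108). The part of these markers in the Dll1 result was not tested.

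The 3 target genes did not move as one. Nrarp, which encodes a short ankyrin-repeat protein that binds the Notch intracellular domain and dampens its activity, rose early. Untreated libraries held 19.1 and 22.5 CPM of Nrarp at day 2 and 29.7 and 28.8 CPM at day 2.5, and doxycycline libraries 68.5 and 70.1 CPM at day 2, 84.5 and 79.5 CPM at day 2.5 and 111 and 109 CPM in Flk1-positive samples. All doxycycline libraries were above all untreated ones. The increase was 1.74 ± 0.11 on the log2 scale at day 2 (3.34-fold; edgeR adjusted p = 5.23e-08) and 1.49 ± 0.10 at day 2.5 (edgeR adjusted p = 2.29e-08), and Flk1-positive samples were higher by a further 0.42 ± 0.10 (edgeR adjusted p = 0.00273). Without doxycycline day 2 replicate 1 or 2 the day 2 value was 1.75 or 1.72. Untreated samples rose by 0.49 ± 0.11 between the days (edgeR adjusted p = 0.00551), a call lost without untreated day 2 replicate 1 (0.37, adjusted p = 0.112). The reads behind all of this can include those of Gm38287.

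Hey1 (chromosome 3, 8663359 to 8667256, minus strand), a basic helix-loop-helix repressor of endothelial and cardiac development, rose only in the later doxycycline samples. It was at 12.99 and 11.8 CPM in untreated day 2 libraries, 7.98 and 9.68 CPM with doxycycline at day 2, 8.83 and 10.1 CPM in untreated day 2.5 libraries, 24.0 and 24.9 CPM with doxycycline at day 2.5 and 57.2 and 60.5 CPM in Flk1-positive samples. At day 2 its 2 doxycycline libraries were below both untreated ones and the difference of -0.49 ± 0.15 did not pass the test (edgeR adjusted p = 0.0755). That value passed it without doxycycline day 2 replicate 2 (-0.64, edgeR adjusted p = 0.0108) and with length and GC trends removed (-0.51, 0.0445), and was -0.36 (0.180) without replicate 1. At day 2.5 the difference was 1.37 ± 0.14 (2.58-fold; edgeR adjusted p = 2.18e-06), and Flk1-positive samples exceeded other doxycycline samples by 1.26 ± 0.13 (edgeR adjusted p = 2.77e-06).

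Hes1 (chromosome 16, 30064384 to 30067796, plus strand), a repressor of the same protein class and a widely used Notch readout that other pathways also control, fell with doxycycline at both days. Its levels were 48.2 and 50.9 CPM in untreated and 33.1 and 30.7 CPM in doxycycline libraries at day 2, 77.1 and 82.4 CPM in untreated and 47.8 and 48.8 CPM in doxycycline libraries at day 2.5, and 55.1 and 50.3 CPM in Flk1-positive samples. The highest level was thus that of untreated day 2.5 samples, and Flk1-positive samples overlapped untreated day 2 samples. The doxycycline change was -0.63 ± 0.10 at day 2 (edgeR adjusted p = 0.00135), lost in a fit of the 4 day 2 libraries alone (0.0710) and held without doxycycline day 2 replicate 1 (-0.69) or 2 (-0.58), and -0.72 ± 0.10 at day 2.5 (edgeR adjusted p = 4.64e-05). From day 2 to day 2.5 Hes1 rose in untreated samples by 0.69 ± 0.10 (edgeR adjusted p = 0.000493) and in doxycycline samples by 0.60 ± 0.10 (0.000228). Flk1-positive and other doxycycline samples differed by 0.13 ± 0.10 (edgeR adjusted p = 0.329).

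**Figure D3:**
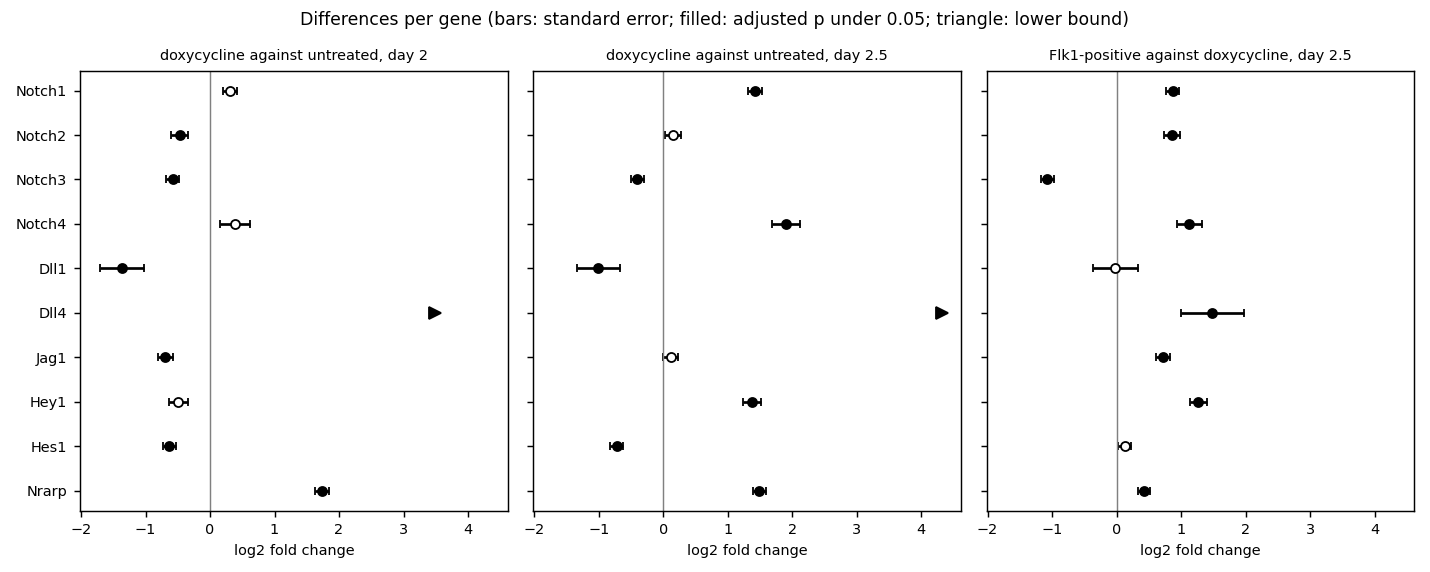
Log2 fold change of each gene (horizontal axis) in 3 comparisons, with standard errors as bars, filled marks for an edgeR adjusted p under 0.05 and a triangle for the lower bound of Dll4. Nrarp is to the right of 0 in all 3 panels (1.74, 1.49 and 0.42), whereas Notch1, Notch4 and Hey1 are called from day 2.5 on.

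Counted over the 10 genes, doxycycline at day 2 went with 2 higher (Dll4 and Nrarp) and 5 lower (Notch2, Notch3, Dll1, Jag1 and Hes1). Over all genes tested 4.67% were called at that day (3.11% higher and 1.56% lower). The median log2 change of the 10 was -0.48, against 0.00 over all genes. The counts depended on single libraries: 1 higher and 2 lower remained without untreated day 2 replicate 1, 1 and 3 without untreated day 2 replicate 2, and the lower count was 3 without doxycycline day 2 replicate 1 and also without each of the untreated day 2.5 libraries. With only the 4 libraries of day 2 in the fit, Nrarp alone was called. At day 2.5, 5 were higher (Notch1, Notch4, Dll4, Hey1 and Nrarp) and 3 lower (Notch3, Dll1 and Hes1), where 29.9% of all genes were called (16.1% higher and 13.8% lower), with a median of 0.76 for the 10. The 3 lower became Hes1 alone without untreated day 2.5 replicate 1 or doxycycline day 2.5 replicate 2. Notch3, Dll1, Dll4, Hes1 and Nrarp were called in the same direction at both days. For Dll4, at 0 in all untreated libraries, that direction was fixed in advance. The comparisons of the days share no library, but both come from 1 fit with a shared estimate of the spread, so the calls are not independent.

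Flk1-positive samples were higher than the other doxycycline samples of day 2.5 in 7 of the 10 genes, with Notch3 as the single lower one and Dll1 and Hes1 past neither side of the test. Here 41.8% of all genes were called (20.5% higher and 21.3% lower), and the median of the 10 was 0.79. Against untreated samples of day 2.5 all 10 were called, 7 higher and 3 lower (Notch3, Dll1 and Hes1), where 55.3% of all genes were (28.6% higher and 26.6% lower). Notch1 differed by 2.29 ± 0.11 on the log2 scale in that comparison, Notch4 by 3.03 ± 0.22, Hey1 by 2.63 ± 0.14 and Notch3 by -1.48 ± 0.10. These comparisons share the Flk1-positive libraries, and the doxycycline and Flk1-positive comparisons share controls, so the values are side by side and not independent.

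Between the days, untreated samples changed in 3 of the 10 genes (Hes1 and Nrarp higher, Notch1 lower), with 19.5% of all genes called (9.22% higher and 10.3% lower). Without untreated day 2 replicate 1 only Hes1 remained. Notch1 was also lost without each untreated day 2.5 library and without doxycycline day 2.5 replicate 1, and Hey1 joined it as lower without each doxycycline day 2 library. Doxycycline samples rose in 6 genes between the days, with 46.0% of all genes called (22.9% higher and 23.1% lower). These were Hey1 (1.47 ± 0.14 on the log2 scale), Notch4 (1.41 ± 0.21), Notch1 (0.74 ± 0.10), Jag1 (0.66 ± 0.12), Notch2 (0.61 ± 0.12) and Hes1 (0.60 ± 0.10). With length and GC trends removed Notch1 and Notch2 moved to 0.41 and 0.35 and stayed past the threshold (edgeR adjusted p = 0.000323 and 0.00306). Without doxycycline day 2 replicate 1 or 2, Notch2 was 0.38 or 0.88, Notch1 0.62 or 0.87, Notch4 1.70 or 1.17, Jag1 0.57 or 0.75, Hey1 1.34 or 1.61 and Hes1 0.65 or 0.54, and all 6 stayed past the threshold. Nrarp, at 0.24 ± 0.10 (edgeR adjusted p = 0.0531), became the seventh in 5 of the 20 alternatives, among them limma-voom (0.0381), length and GC trends removed (0.37, 0.00300) and the fit without doxycycline day 2 replicate 2 (0.0397).

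The doxycycline effect itself differed between the days in 5 genes, tested as an interaction in the same fit, where 12.1% of all genes were called (6.87% higher and 5.24% lower). With its sign kept, it was higher at day 2.5 for Hey1 (by 1.86 ± 0.20 on the log2 scale, edgeR adjusted p = 2.15e-05), Notch4 (1.52 ± 0.32, 0.00551), Notch1 (1.12 ± 0.15, 0.000152), Jag1 (0.81 ± 0.16, 0.00430) and Notch2 (0.62 ± 0.18, 0.0308). Without doxycycline day 2 replicate 1 or 2 the value was 1.73 or 2.01 for Hey1, 1.81 or 1.28 for Notch4, 1.01 or 1.25 for Notch1, 0.73 or 0.90 for Jag1 and 0.39 or 0.89 for Notch2, all past the threshold. For Hey1, Jag1 and Notch2 the day 2 effect was below 0 and the day 2.5 effect above it, but only 1 of the 2 passed the test. For Hey1 that was the rise at day 2.5 (day 2: edgeR adjusted p = 0.0755). For Jag1 and Notch2 it was the fall at day 2 (day 2.5: edgeR adjusted p = 0.481 and 0.393). The Notch2 interaction was lost without any library but the 2 doxycycline ones of day 2 (8 of 10, adjusted p between 0.0666 and 0.129), and was 0.41 with length and GC trends removed. Nrarp had an interaction of -0.25 ± 0.14 (edgeR adjusted p = 0.291), Hes1 of -0.09 ± 0.14 (0.743) and Notch3 of 0.18 ± 0.14 (0.469). No interaction is given for Dll4, whose untreated groups were at 0 at both days.

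The wider pathway was read from 8 lists of other genes. Beside their counts stand the shares of all genes called. With doxycycline these were 3.11% higher and 1.56% lower at day 2, and 16.1% higher and 13.8% lower at day 2.5. In Flk1-positive against other doxycycline samples they were 20.5% higher and 21.3% lower. At day 2 the call closest to the receptors was Lfng, a glycosyltransferase that changes which ligands a receptor answers, at 13.1 CPM with and 4.91 CPM without doxycycline (1.41 ± 0.22 on the log2 scale, edgeR adjusted p = 0.00111). Of 9 arterial genes 1 fell at day 2, namely Efnb2, the arterial ephrin, from 66.9 to 31.0 CPM (-1.11 ± 0.10, edgeR adjusted p = 6.58e-06). Of 8 tested presomitic mesoderm genes 1 fell at day 2, Fgf8, from 95.5 to 47.3 CPM (-1.01 ± 0.16, edgeR adjusted p = 0.00133). The Lfng, Efnb2 and Fgf8 values at day 2 use the doxycycline pair that stood apart and are not given without its libraries. At day 2.5, 6 of the 9 arterial genes rose, with Sox17 (4.39 ± 0.32), Nrp1 (3.77 ± 0.27) and Efnb2 (0.74 ± 0.10) among them, and 6 of 9 were higher again in Flk1-positive samples (Efnb2 1.15 ± 0.10, Sox17 1.94 ± 0.21, Acvrl1 2.47 ± 0.27). These genes mark endothelium at large as well, and the endothelial marker sum rose alongside; its part was not tested. Of 8 tested presomitic mesoderm genes, where Notch drives the segmentation clock, 6 fell with doxycycline at day 2.5, among them Fgf8 (from 146 to 30.4 CPM) and Pcdh8 (from 26.1 to 4.67 CPM). Fgf8 is also 1 of 6 primitive streak markers, and all 6 were called lower in that comparison. Their summed level was 2648 to 3032 CPM in untreated and 811 to 846 CPM in doxycycline samples of day 2.5. The part of these markers was not tested.

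Of 10 genes of receptor cleavage 3 were called with doxycycline at day 2.5, a share near that of all genes called in either direction (29.9%). All 3 rose, where 16.1% of all genes did. They were Adam10, the protease that makes the ligand-dependent cut (0.67 ± 0.12), Furin, which cuts the receptor precursor (0.49 ± 0.11), and Aph1a, a gamma-secretase subunit (0.52 ± 0.17). Of 13 genes of the nuclear complex and its co-repressors, 1 rose with doxycycline at day 2.5, the acetyltransferase gene Kat2b (0.82 ± 0.12), and 7 were lower in Flk1-positive than in other doxycycline samples. Rbpj, the DNA-binding partner of Notch, was one of the 7 (77.4 against 103.8 CPM, -0.42 ± 0.09, edgeR adjusted p = 0.00220), as was the deacetylase gene Hdac1 (-0.60 ± 0.12). Of 12 tested genes of ligand endocytosis and receptor turnover, 4 rose and 2 fell with doxycycline at day 2.5, and 4 were higher and 5 lower in Flk1-positive samples, where the Deltex genes split: Dtx3 was higher (1.26 ± 0.09) and Dtx1 lower (-2.11 ± 0.15). Of 4 other ligands 2 fell with doxycycline at day 2.5, Dll3 (-1.36 ± 0.17) and Dlk1 (-1.32 ± 0.24). In Flk1-positive against other doxycycline samples 3 of the 4 were lower (Dlk1, Dll3 and Jag2) and 0 higher. Of 8 genes listed as other Hes and Hey genes, with Bhlhe40 among them, 4 passed the filter. Hes6 fell with doxycycline at day 2.5 (-0.44 ± 0.15) and Hey2, a close relative of Hey1, rose (1.33 ± 0.35), from 1.53 to 3.86 CPM. In Flk1-positive against other doxycycline samples 3 of the 4 were lower (Bhlhe40, Hes2 and Hes6) and 0 higher.

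**Figure D4:**
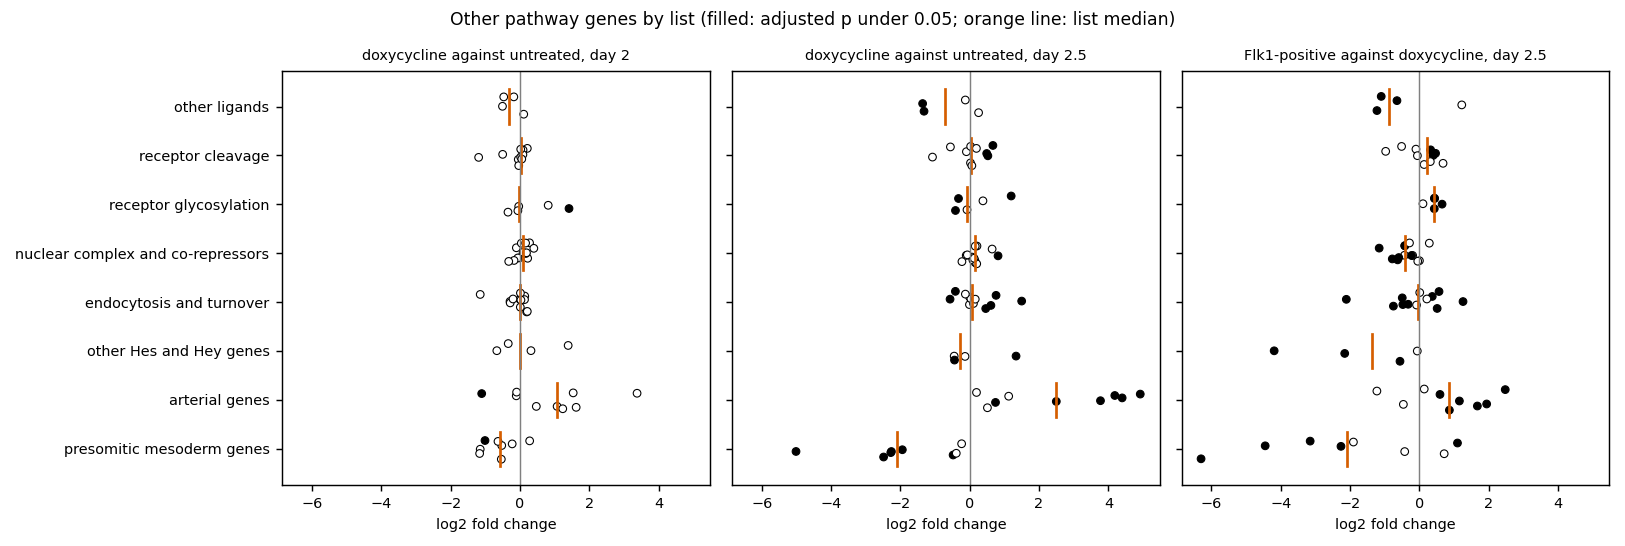
Log2 fold change (horizontal axis) of each other pathway gene, by list (vertical axis), in 3 comparisons, with filled points for an edgeR adjusted p under 0.05 and an orange line at the list median; vertical spread within a list only separates the points. Arterial genes lie to the right at day 2.5 (6 of 9 called) and presomitic mesoderm genes to the left (6 of 8 called), while the medians of receptor cleavage and nuclear complex genes lie near 0 with doxycycline at day 2.5 (0.04 and 0.15).

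The genes most like each of the 10 were sought over the 5 group means of log2 CPM, centred on each gene's own mean, among 10737 genes with at least 5 CPM in their highest group. Nearest to Notch1 was Bmp1 (root mean square difference 0.06 on the log2 scale), to Notch2 Tlr2 (0.07), to Notch3 Ddit4 (0.06), to Notch4 Sdc3 (0.10) followed by Flt1 (0.11), a VEGF receptor, and to Jag1 Pkd1 (0.05). Hey1 was nearest to Bcl6b (0.13), Hes1 to Tmc7 (0.10), Nrarp to Pstpip1 (0.15) and Dll1 to Gpr63 (0.19). Dll4 was nearest to Thsd1 (0.31), the largest of these differences. Its own root mean square spread over the groups was also the largest, at 2.20 against 0.42 (Hes1) to 1.17 (Notch4) for the others. The differences are thus not on a like scale. With 5 groups and so many genes, near matches of this kind are a description of the order of levels and no more.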

How the data were processed

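The authors deposited raw counts per gene, with 1 column for each of 10 libraries. TopHat, HTSeq, DESeq2 and the genome build mm10 are named per the submitters' processing notes, without versions or roles; gene annotation, strand setting and handling of multiply mapped reads: not given in the sources used here. From 23429 entries, 92 spike-in entries with 0 counts were left out. Counts were fitted in R 4.3.3 with edgeR 4.0.16: filterByExpr (minimum count 10, total 15), TMM scaling, 1 mean per group over all 10 libraries, robust quasi-likelihood tests with 5 residual degrees of freedom, and Benjamini-Hochberg adjustment over 14548 genes in each of 7 comparisons (threshold 0.05). Standard errors come from the F statistic. The procedure was tested on simulated data. Members and gene lists were chosen with earlier results of these data known. Of each list, up to 3 called genes with the smallest adjusted p and at least 5 CPM in the higher group were open to naming, and the 2 genes most like each member; Hey2 was named after its values were seen. There were 20 alternatives, including DESeq2 1.42.0 and limma-voom. One, trends on exon length and GC content (90.7% of tested genes), was first run without centring; centring each library's trend on its median was chosen after those results were seen, and both forms are reported.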

Additional observations from a re-analysis of the deposited data

Results flagged for a closer look

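With its sign kept, the log2 doxycycline change was higher at day 2.5 than at day 2 for 5 of the 10 genes. This was by a test of the difference itself in edgeR. For Jag1 and Notch2 the called change was the fall at day 2, and the day 2.5 change did not pass the test. On the log2 scale the difference between the effects was 1.861 for Hey1, 1.523 for Notch4, 1.119 for Notch1, 0.8118 for Jag1 and 0.6236 for Notch2. All 5 draw on the doxycycline day 2 libraries that stood apart from each other. The value for Notch2 was 0.39 without replicate 1 of that pair and 0.89 without replicate 2.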

How the results depend on the processing

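Of 68 gene results, 47 passed the threshold. All 47 kept their sign in all 20 alternatives, 34 stayed past the threshold in all of them and 13 lost it in some. The Dll4 results against untreated groups, which had 0 counts, could not change sign. Unless a sentence says otherwise, the cause of a lost call was not tested. With only the compared groups in the fit, day 2 gave 1 higher and 0 lower. Leaving out 1 library at a time gave 1 to 3 higher and 2 to 6 lower at day 2, 1 to 3 lower at day 2.5, and, between the untreated days, 1 to 2 higher and 0 to 2 lower. Over all genes the day 2 counts were 453 higher and 227 lower, with 188 to 1035 and 58 to 1275 when 1 library was left out, and 117 to 877 and 38 to 507 in the other alternatives. A group left with 1 library was assumed to vary like the other groups.

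The labels state no pairing of samples by replicate number. Deviations of same-numbered libraries correlated at -0.034 to 0.098, so no strong shared shift was seen. Such values cannot show whether same-numbered samples were handled together. The replicate block changed no call of the 10 genes when used alone. With the replicate block and the length and GC trends removed, Notch3 changed sign between the doxycycline days (-0.1627) and in the interaction (-0.03871), and Hes1 in the interaction (0.004092).

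With those trends removed and no block, Notch3 was -0.1622 between the doxycycline days and -0.03872 in the interaction, and Hes1 was 0.002666 in the interaction. The uncentred form, whose results led to the centred one, moved the median of all genes to -0.13 for doxycycline at day 2.5 and split its calls into 2019 higher and 4245 lower, against 2349 and 2001. Its median for the interaction was -0.11, with 981 higher and 2320 lower against 1000 and 763, and at day 2 it gave 630 and 507. It gave 1 lower gene between the doxycycline days, Notch3 (-0.23, edgeR adjusted p = 0.0235), and turned the interaction of Notch3 (-0.1426) and the day 2.5 doxycycline values of Notch2 (-0.1273) and Jag1 (-0.0763).

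Other sign changes were in values short of the threshold. Between the untreated days, Notch2 was 0.0004959 with DESeq2, 0.009667 without the filter, 0.004411 with only the compared groups and 0.004754 on thinned counts, and -0.0663 to 0.0381 with 1 library left out. In the same comparison and manner, Notch3 ran from -0.1733 to 0.05024 and Dll1 from -0.5541 to 0.3253. Dll1 also ran from -0.4304 to 0.2812 between Flk1-positive and doxycycline samples, from -0.06866 to 0.454 between the doxycycline days, and from -0.1548 to 0.7246 in the interaction. Dll1 and Dll4 rest on low counts, which limits their precision.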
